A study of Rattus norvegicus with 93 samples.

Results

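The 8 genes described here are the heat shock and chaperone genes Hspa1a, Hspa1b, Dnajb1, Hsp90aa1, Hspa8, Hsph1, Hspb1 and Hspa5. They were chosen by name from the 38354 genes of the deposited table, and all 8 were among the 18749 genes that passed the filter on low values. Expression was measured by RNA sequencing of polyadenylated RNA from the rostromedial tegmental nucleus (RMTg), an inhibitory brainstem nucleus that projects to midbrain dopamine neurons, in outbred rats gathered for genetic work on avoidance learning in addiction. The labels put every sample in 1 group of outbred laboratory rats and state no treatment, strain name, age, sex or genotype, so the genes were followed across libraries. Of 92 libraries, the 49 were used in which Nif3l1 took under 20% of the counts and the pair LOC120093067 and Zfp532 under 10%. Sample identifiers fall into number series, separated by gaps of over 50000, and the 49 libraries came from series B (7), C (16), D (12), E (7) and F (7). The labels do not say what sets these series apart, and a library is named here by its series letter and a number given in accession order.

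Heat shock proteins are molecular chaperones that bind unfolded or partly folded proteins and help them reach or regain their shape. HSP70 proteins work in cycles of ATP binding and release: J-domain proteins such as Dnajb1 hand them clients, and nucleotide exchange factors such as Hsph1 let the clients go. Cytosolic stress activates the transcription factor Hsf1, which binds repeats of the GAA unit (the heat shock element) and induces genes such as Hspa1a and Hspa1b, whereas Hspa5 (BiP) serves the endoplasmic reticulum and is induced by the unfolded protein response. In neurons Hspa8 also removes clathrin from endocytosed synaptic vesicles.

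The windows upstream of the start show which members carry letters of these elements. The RefSeq promoter table (GRCr8) gave a window for 6 of the 8 members, with none for Hspa1b or Hsp90aa1, and the 250 bases before the start were searched on both strands. A pair of facing GAA units (GAANNTTC or TTCNNGAA) occurred in 4 of these 6 windows, against 13.55% of 33469 promoters. A run of 3 units (both paired forms overlapping in their middle unit) occurred in 2 of 6, Hspa8 and Hsph1, against 0.663% of promoters. The 4 windows below are shown because they differ in these elements: 2 hold the 3-unit form, Dnajb1 holds a pair, and Hspa5 holds the endoplasmic reticulum stress element (its CCAAT and CCACG parts separated by 9 bases), present in 0.0657% of promoters. They lie at chr8:50080264-50080513 (plus strand, Hspa8), chr12:10427118-10427367 (plus, Hsph1), chr19:41431142-41431391 (minus, Dnajb1) and chr3:38452766-38453015 (plus, Hspa5), and capitals mark the matches.
Hspa8: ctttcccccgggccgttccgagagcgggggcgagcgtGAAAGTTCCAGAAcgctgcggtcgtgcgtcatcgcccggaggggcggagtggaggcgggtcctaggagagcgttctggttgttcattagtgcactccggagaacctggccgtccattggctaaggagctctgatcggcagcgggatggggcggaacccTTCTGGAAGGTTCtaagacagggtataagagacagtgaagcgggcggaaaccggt
Hsph1: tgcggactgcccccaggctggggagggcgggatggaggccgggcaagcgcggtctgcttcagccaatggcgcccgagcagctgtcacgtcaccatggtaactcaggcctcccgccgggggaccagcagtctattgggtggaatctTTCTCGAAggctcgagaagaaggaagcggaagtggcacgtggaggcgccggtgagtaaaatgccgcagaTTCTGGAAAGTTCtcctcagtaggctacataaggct
Dnajb1: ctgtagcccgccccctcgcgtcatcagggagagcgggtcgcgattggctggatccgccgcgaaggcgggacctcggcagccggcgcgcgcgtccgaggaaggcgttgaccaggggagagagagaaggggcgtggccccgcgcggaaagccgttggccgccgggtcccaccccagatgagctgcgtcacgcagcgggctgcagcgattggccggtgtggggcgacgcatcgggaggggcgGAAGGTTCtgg
Hspa5: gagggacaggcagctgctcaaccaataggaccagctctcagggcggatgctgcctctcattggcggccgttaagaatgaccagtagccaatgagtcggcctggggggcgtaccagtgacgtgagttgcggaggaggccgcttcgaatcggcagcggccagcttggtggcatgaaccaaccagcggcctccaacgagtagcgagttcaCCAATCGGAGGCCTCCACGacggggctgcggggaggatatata
In Hspa8 the 3-unit matches begin 213 and 55 bases before the start. Hsph1 has its 3-unit match 36 bases before the start and a separate pair 105 bases before it, and in Dnajb1 the pair lies 11 bases before the start. Hspb1 has pairs 129 and 109 bases before its start, and the Hspa1a window holds none of the searched motifs. Bases outside the 250 before the annotated start were not searched, so the Hspa1a window does not show that the gene lacks these elements. A match is a description of letters and not a measured binding site.

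Total estimated counts in the 49 libraries ranged from 9.55 to 50.2 M (M stands for 1000000 counts; median 19.2 M), and 23690 to 28273 genes were above 0. Of 1176 pairs of libraries, 0 were identical, and the lowest chi-square per gene was 7.74. All 10 markers of RMTg inhibitory neurons on the list used here, among them Gad1, Gata3, Sox14 and Tal1, were above 0 in every library. Levels are given as counts per 1000000 (CPM), which are not adjusted for transcript length, so levels were not compared between genes. The RNA comes from whole tissue, in which fewer cells of a type and less RNA per cell cannot be told apart. No label says that libraries came from separate animals, so p-values measure the spread between these libraries.

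Hspa1a and Hspa1b, the stress-inducible cytosolic HSP70 genes, varied most between libraries. Hspa1a had a lowest, median and highest level of 2.46, 9.39 and 91.9 CPM, a 37.4-fold span. Hspa1b had a lowest, median and highest level of 1.23, 7.42 and 189.5 CPM, a 154.2-fold span. Library C22 was highest for both, E3, D4, D2 and F4 followed in Hspa1a at 25.9 to 37.7 CPM, and the 5 series overlapped throughout. With the usual change of spread with mean level removed, the SD of log2(CPM + 1) of Hspa1a stood at the 99.6th percentile and that of Hspa1b at the 99.8th percentile of the 18749 genes. The pair lie close together on chromosome 20 (table positions 3859756 and 3875411) and encode nearly identical proteins, so how reads were divided between them is uncertain. Hspa1a made up 32.7% to 74.9% of their sum (median 50.9%), and the sum itself had a lowest, median and highest level of 4.09, 15.3 and 281.4 CPM. At the low end the lowest estimated counts were 37.9 for Hspa1a and 16.5 for Hspa1b, so counting error is largest there.

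Dnajb1, the J-domain partner of inducible HSP70, also varied more than most genes of its level. It averaged 91.5 ± 32.2 CPM (SD, n = 49), with a lowest, median and highest level of 43.8, 82.8 and 190.0 CPM. F3 (190.0 CPM) and F4 (187.9 CPM) were highest and D6 (43.8 CPM) lowest. Its spread for its level stood at the 95.8th percentile of all genes.

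Hspa8 and Hsph1 were steadier. Hspa8, the cognate HSP70 of resting cells, averaged 2396 ± 400 CPM (SD, n = 49), with a lowest, median and highest level of 1433, 2468 and 3329 CPM. Hsph1, the HSP110 exchange factor, averaged 194.7 ± 32.6 CPM (SD, n = 49), with a lowest, median and highest level of 116.1, 189.7 and 278.7 CPM. E5 and C8 were highest for Hspa8, D4 and E3 were highest for Hsph1, and C5 and D6 were low for both. Their spreads for their levels were ordinary, at percentile 58.99 (Hspa8) and percentile 51.9 (Hsph1).

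Hsp90aa1, the inducible cytosolic HSP90, averaged 2948 ± 552 CPM (SD, n = 49), with a lowest, median and highest level of 1947, 2902 and 5093 CPM. C22 (5034 CPM) and D2 (5093 CPM) stood apart at the top, the next library was C8 at 3684 CPM, and C23 was lowest. Hspb1, a small heat shock protein that holds unfolding proteins without using ATP, averaged 8.17 ± 4.18 CPM (SD, n = 49), with a lowest, median and highest level of 3.31, 7.16 and 26.5 CPM. C22 was again highest at 26.5 CPM, with E3 at 18.4 and D4 at 16.1 CPM behind it. The spread of Hspb1 for its level stood at the 95.7th percentile and that of Hsp90aa1 at the 46.9th.

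Hspa5, the HSP70 of the endoplasmic reticulum, averaged 494.0 ± 92.9 CPM (SD, n = 49), with a lowest, median and highest level of 226.9, 497.9 and 711.9 CPM. E5 and E3 were highest and D6 lowest, and the spread stood at the 76.9th percentile. The plot of levels by series shows these ranges for every library.

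**Figure D1:**
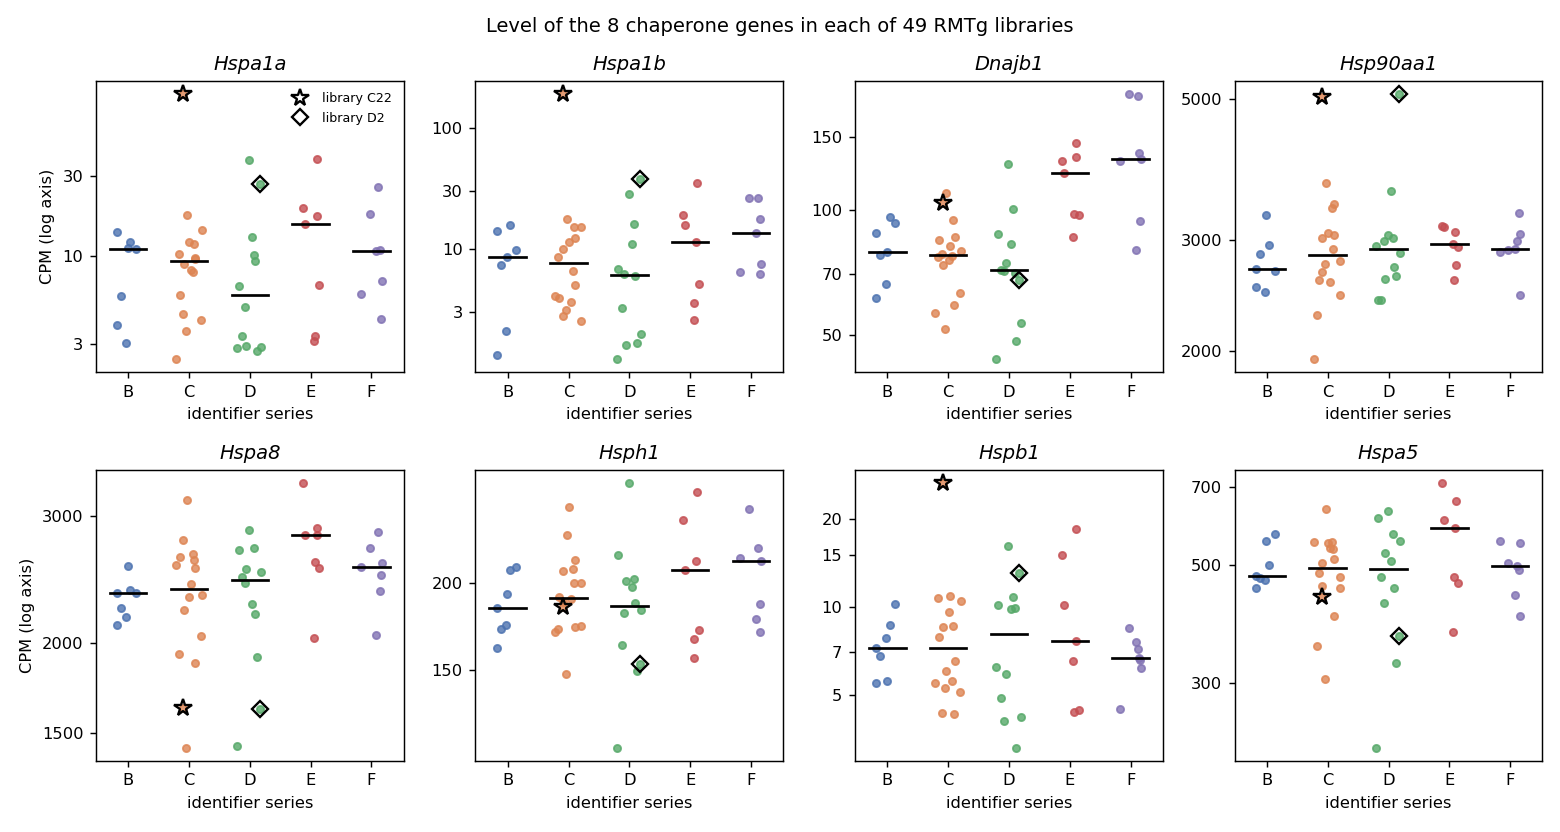
Level of each of the 8 genes in every library (1 point per library, CPM on a log axis) by identifier series B to F, with a bar at each series' median; a star marks library C22 and a diamond library D2. C22 is highest for Hspa1a (91.9 CPM), Hspa1b (189.5 CPM) and Hspb1 (26.5 CPM), and the Dnajb1 medians of E and F (122.7 and 132.8 CPM) sit above those of B, C and D. Those of Hspa1b, Hspa8, Hsph1 and, by a small margin in F, Hsp90aa1 and Hspa5 also do, without passing the test between series.

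Libraries C22 and D2 combined high and low members. C22 had 91.9 CPM of Hspa1a, 189.5 CPM of Hspa1b, 104.0 CPM of Dnajb1 and 26.5 CPM of Hspb1, beside 5034 CPM of Hsp90aa1, 1624 CPM of Hspa8, 184.8 CPM of Hsph1 and 434.9 CPM of Hspa5. D2 had 27.1 CPM of Hspa1a, 38.1 CPM of Hspa1b, 67.97 CPM of Dnajb1 and 13.03 CPM of Hspb1, beside 5093 CPM of Hsp90aa1, 1621 CPM of Hspa8, 152.9 CPM of Hsph1 and 366.9 CPM of Hspa5. Both were thus high for the inducible HSP70 genes and Hsp90aa1, and below the median for Hspa8, Hsph1 and Hspa5. Libraries D4, E3 and E5 differed from them: D4 paired 37.2 CPM of Hspa1a with 278.7 CPM of Hsph1 and 630.0 CPM of Hspa5, and in E3 and E5 Hspa1a, Hspa8, Hsph1, Hspb1 and Hspa5 were likewise above their medians. C22 had the fewest genes above 0 (23690), and its summed astrocyte markers were the highest of the 49, at 2115 CPM (range 701.0 to 2115, median 1140.5; 6 of 6 markers above 0 in every library). In D2 the pair LOC120093067 and Zfp532 took 5.50% of the counts, the highest share, against a range of 1.41% to 5.50% (median 2.78%). D2 also had the highest sum of neuron markers (3237 CPM, range 2043 to 3237) and the lowest of endothelial markers (142 CPM, range 142 to 272). The part of these measures in the chaperone levels was not tested. Results that rest on these libraries are given with and without them, an alternative chosen after their values were seen.

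How far the members moved together was tested by the slope of each gene on each member's log2(CPM + 1) with limma, adjusted by the Benjamini-Hochberg method over 18748 genes. A gene is said to rise or fall with another where the adjusted p is under 0.05. A slope is the change in a gene's log2(CPM + 1) per log2 unit of the other. Of 28 pairs of members, 15 were called in both directions, all positive. Of the 7 other members, 6 rose with Dnajb1, where 13.6% of all genes did, and 6 with Hsph1 (14.4% of all genes). With Hspa1a 5 rose (2.62% of all genes), with Hspa1b 5 (2.11%), with Hspa5 4 (20.7%), with Hspa8 3 (26.5%), with Hsp90aa1 3 (9.95%) and with Hspb1 2 (0.0213%). The share for Hspa8 is close enough to its background, 3 of 7 against 26.5%, to say little about the members. Without C22 and D2, 5 of 7 rose with Hspa1a (0.331% of all genes), 4 with Hspa1b (0.0908%), 6 with Dnajb1 (14.9%), 2 with Hsp90aa1 (7.62%), 5 with Hspa8 (22.8%), 6 with Hsph1 (13.9%), 2 with Hspb1 (0.016%) and 6 with Hspa5 (19.9%). Hspa1a and Hspa1b, whose reads may be shared, count as 2 members in these tallies, and each rose with the other. The 2 that rose with Hspb1 in both settings, and the 2 with Hsp90aa1 without C22 and D2, were this pair. No member fell with another, where 3.17% of all genes fell with Hspa1a, 4.16% with Hspa1b, 11.5% with Dnajb1, 25.9% with Hsp90aa1, 14.7% with Hspa8, 4.68% with Hsph1, 0.0213% with Hspb1 and 11.1% with Hspa5. Pearson's r was also tested by permutation, with p adjusted over the 1316 relations computed in the same family (smallest adjusted p possible here 0.0001).

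Hspa8, Hsph1 and Hspa5 rose and fell together. Hspa8 and Hspa5 had r = 0.87 and rho = 0.82 over 49 libraries (permutation, adjusted p = 0.0001), 0.45 to 0.96 within the 5 series and 0.81 without C5 and D6, the 2 libraries with the most extreme Hspa8. Hsph1 and Hspa5 had r = 0.84 and rho = 0.81 (permutation, adjusted p = 0.0001), 0.72 to 0.94 within series and 0.79 without D4 and D6. For Hspa8 and Hsph1 r was 0.75 and rho 0.72 (permutation, adjusted p = 0.0001), 0.68 to 0.87 within series and 0.67 without C5 and D6. D6 and C5 were at the low end of all 3 genes and E5 and E3 near the top, and each relation had 1 sign in every series. Without C22 and D2 the 3 values of r were 0.89, 0.83 and 0.77.

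Dnajb1 moved with Hsph1, Hspa8, Hspa5, Hspa1a and Hspa1b. Its r with Hsph1 was 0.72 (rho = 0.66; permutation, adjusted p = 0.0001), 0.63 to 0.89 within series and 0.70 without F3 and F4. With Hspa8 r was 0.63 (rho = 0.66; permutation, adjusted p = 0.0001) and 0.46 to 0.85 within series, and with Hspa5 it was 0.59 (rho = 0.54; permutation, adjusted p = 0.0001) and 0.53 to 0.91 within series. With Hspa1a r was 0.61 (rho = 0.63; permutation, adjusted p = 0.0001), 0.67 to 0.91 within series and 0.70 without C22 and D2. With Hspa1b it was 0.61 (rho = 0.65; permutation, adjusted p = 0.00018), 0.56 to 0.96 within series and 0.73 without C22 and D2. Each of the 5 relations was positive in every series.

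The inducible HSP70 genes moved with Hspb1. Hspa1a and Hspa1b had r = 0.94 and rho = 0.93 (permutation, adjusted p = 0.0001), a value that shared reads could raise. Hspa1a and Hspb1 had r = 0.78 and rho = 0.69 (permutation, adjusted p = 0.0001), 0.30 to 0.89 within series and 0.70 without C22 and D2. Hspa1b and Hspb1 had r = 0.73 and rho = 0.65 (permutation, adjusted p = 0.0001), 0.44 to 0.94 within series and 0.63 without C22 and D2. Hspa1a and Hspa1b also rose with Hsph1, at r = 0.58 and 0.50, and these became 0.76 and 0.71 without C22 and D2. The call of Hspa1b with Hsph1 was lost without series D (limma, adjusted p = 0.061) and without series E (limma, adjusted p = 0.058). C22, E3, D4 and D2 held the 4 highest levels of all 3 genes except that E5 exceeded D2 in Hspb1.

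Relations of Hspa1a and Hspa1b with Hsp90aa1 and Hspa8 had other values without C22 and D2. Hspa1a and Hsp90aa1 had r = 0.63 and rho = 0.57 (permutation, adjusted p = 0.0001), and 0.48 without C22 and D2, where the slope of Hsp90aa1 on Hspa1a was no longer called (limma, adjusted p = 0.14; 0.26 without series C) and that of Hspa1a on Hsp90aa1 still was (limma, adjusted p = 0.0035). Hspa1b and Hsp90aa1 had r = 0.62 over 49 libraries and 0.42 without the 2 libraries. There the slope of Hsp90aa1 on Hspa1b was not called (limma, adjusted p = 0.29; 0.21 without series C), whereas that of Hspa1b on Hsp90aa1 was (limma, adjusted p = 0.013). Conversely, Hspa1a and Hspa8 had r = 0.16 over 49 libraries (rho = 0.31; permutation, adjusted p = 0.40) and 0.48 without C22 and D2. Hspa1b and Hspa8 had r = 0.12 over 49 libraries (rho = 0.30; permutation, adjusted p = 0.55) and 0.47 without them. Hsp90aa1 and Hspa8 had r = -0.17 over 49 libraries, a p of 0.38 after adjustment (permutation), and 0.21 without them, and within series the sign differed. Without C22 and D2 the slopes of Hspa8 on Hspa1a and on Hspa1b were not called (limma, adjusted p = 0.10 and 0.15). Those of Hspa1a and Hspa1b on Hspa8 were called (limma, adjusted p = 0.0013 and 0.0017), so neither pair passed in both directions. The r of Hspa8 with Hspa1a and Hspa1b was -0.18 and -0.25 within series C, and positive in the other series. With Dnajb1, Hsph1, Hspa8 and Hspa5 the r of Hsp90aa1 lay between -0.17 and 0.23, and none of those 4 pairs was called. The plots of correlations and of member pairs show both patterns.

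**Figure D2:**
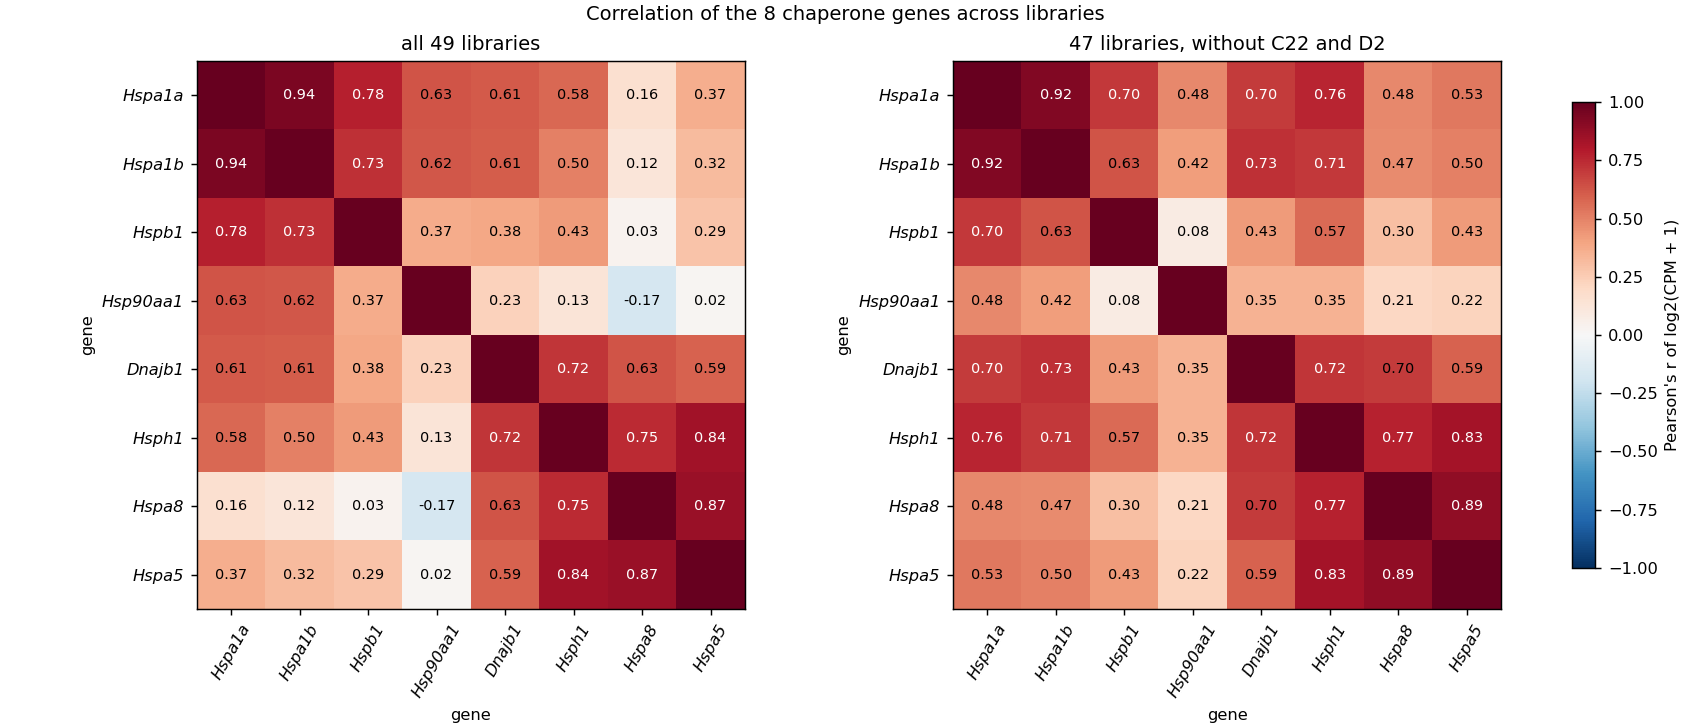
Pearson's r of log2(CPM + 1) for each pair of the 8 genes over all 49 libraries (left) and over the 47 libraries without C22 and D2 (right), on a colour scale from -1 to 1. Hspa1a and Hspa1b have the highest value (0.94 over 49 libraries), the 3 pairs among Hspa8, Hsph1 and Hspa5 are high in both panels (0.75 to 0.87 over 49 libraries), and the row of Hspa8 with Hspa1a, Hspa1b and Hsp90aa1 (0.16, 0.12 and -0.17 over 49 libraries) stands higher in the right panel (0.48, 0.47 and 0.21).

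**Figure D3:**
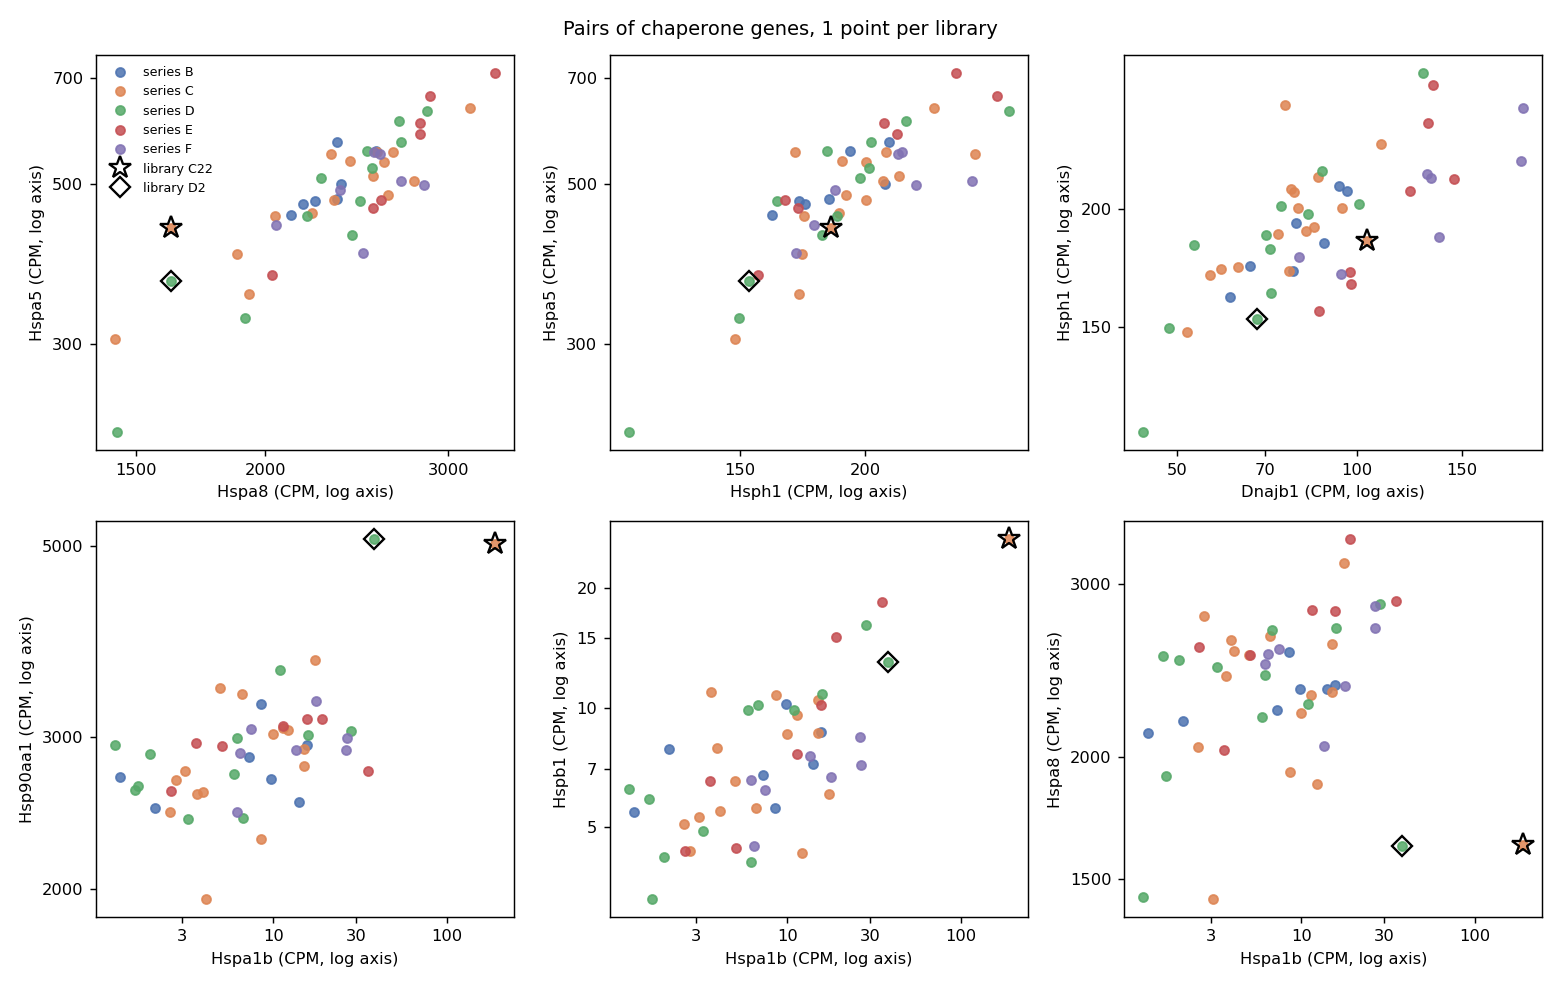
Pairs of genes in each library, in CPM on log axes, coloured by identifier series, with C22 as a star and D2 as a diamond. In the upper row (Hspa8 and Hspa5, Hsph1 and Hspa5, Dnajb1 and Hsph1) C22 and D2 lie near the other libraries; in the lower row (Hspa1b against Hsp90aa1, Hspb1 and Hspa8) both lie at the high end of Hspa1b, at 189.5 and 38.1 CPM, with Hsp90aa1 at 5034 and 5093 CPM.

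Between identifier series, Dnajb1 was the member that differed. In series B, C, D, E and F it averaged 80.3 ± 13.2, 78.4 ± 15.98, 75.1 ± 23.4, 116.4 ± 22.5 and 136.1 ± 41.96 CPM (SD; n = 7, 16, 12, 7 and 7). Levels in E ran from 86.2 to 145.4 CPM and in F from 79.97 to 190.0 CPM, against 43.8 to 129.0 CPM in D, 51.8 to 109.8 CPM in C and 61.3 to 96.2 CPM in B, so the series overlapped. Series F was higher than D by 0.85 ± 0.16 on the log2 scale, a 1.80-fold difference (limma, adjusted p = 0.0016, where 0.523% of genes were called higher). Here p was adjusted over all genes and the 10 pairs of series together. F was also higher than C, 1.69-fold (limma, adjusted p = 0.0044; 0.64% of genes called higher), and E was higher than D, 1.58-fold (limma, adjusted p = 0.037; 0.416% of genes called higher). F against B (1.64-fold, limma adjusted p = 0.056) and E against C (1.48-fold, limma adjusted p = 0.086) did not pass, and F and E differed by 0.19 ± 0.18 on the log2 scale (limma, adjusted p = 0.84).

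Over all 5 series at once, limma's F test called 320 of 18749 genes (1.71%), and 1 of the 8 members, Dnajb1 (adjusted p = 0.00038). For the other 7 the adjusted p lay between 0.62 (Hspa8) and 0.99 (Hsp90aa1). Without series F the adjusted p of Dnajb1 was 0.076 and the call was lost. It stayed called in the other alternatives run, among them those without C22 and D2 (adjusted p = 0.00037). Of the other chaperone genes on the lists, Dnajb5, another J-domain gene (adjusted p = 0.012), Bag3, the cochaperone that links HSP70 to autophagy (0.049), and Ppp1r15a, which restores translation after stress (0.00013), differed between series by the same limma test. These were 1 of 13 cytosolic chaperones, 1 of 16 cochaperones and 1 of 9 regulators of the unfolded protein response. Of the small heat shock genes (4), cytosolic chaperonin subunits (8), mitochondrial (8) and endoplasmic reticulum chaperones (15) and heat shock factors (4) tested, 0 differed. Beside 1.71% of all genes, 1 call in such a list says little about the list. All 10 immediate early genes tested differed between series, and the mean log2(CPM + 1) of Fos was 3.50, 3.29, 3.04, 7.27 and 7.31 in series B to F. The summed red blood cell genes, of which 4 of 4 differed between series and none was at 0 in any library, had medians of 376, 318, 498, 1381 and 1062 CPM in series B to F, and ranged from 489 to 2619.5 CPM in E and F together, against 52.5 to 1242.5 CPM in B, C and D together. Of 7 glucocorticoid targets 3 differed (Sgk1, Tsc22d3 and Per1), and the summed list had medians of 615, 736, 567.5, 1127 and 1166 CPM in series B to F. Of 8 oxidative stress genes 2 differed, Srxn1 and Mt1. Of the RMTg markers Pnoc differed (1 of 10; summed markers 949 to 1160 CPM in E and F together, against 714 to 1195 CPM in the other series). The part of these in the Dnajb1 result was not tested, and what sets the series apart cannot be told from the labels.

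Dnajb1 and the immediate early genes, which neurons induce within minutes of firing, were high in the same series. Over the 49 libraries, where 13.6% of all genes rose with Dnajb1, all 10 tested did, among them Fos, Egr1 and Nr4a1. Fos, Fosb, Egr1, Npas4 and Nr4a1 fall into separate levels that nearly follow the series, so no pooled correlation is given for them. With the series as a covariate 1 of the 10 rose with Dnajb1, near the 7.68% of all genes that did. It was Dusp1, a phosphatase that ends MAP kinase signals, with a slope of 0.59 ± 0.16 (limma, adjusted p = 0.012). For Fos the slope with series as a covariate was 0.57 ± 0.20 (limma, adjusted p = 0.066), and within series its r with Dnajb1 ran from -0.34 in E to 0.72 in D. Dusp1 had r = 0.18 to 0.62 within series. The plot of Dnajb1 against Fos and Dusp1 shows this.

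**Figure D4:**
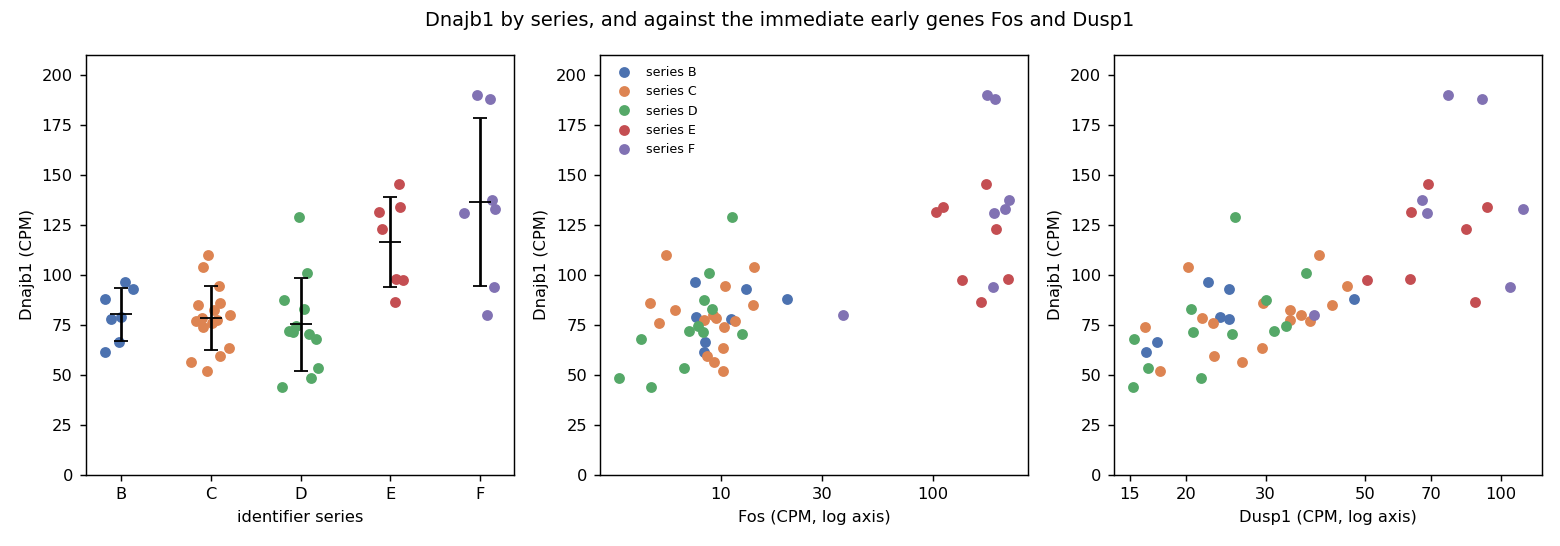
Dnajb1 level (CPM) by identifier series B to F with mean and SD (left; n = 7, 16, 12, 7 and 7), and against Fos (middle) and Dusp1 (right) in CPM on a log axis, 1 point per library. Series E and F lie to the right in both plots and average 116.4 and 136.1 CPM of Dnajb1, and within a series the points follow Fos in some series and not in others.

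Other genes of the chaperone network were followed by list. With Dnajb1, 7 of 13 cytosolic HSP70, HSP90 and J-domain genes rose, 11 of 16 cochaperones, 7 of 8 subunits of the cytosolic chaperonin TRiC/CCT, which folds actin and tubulin, 4 of 8 mitochondrial chaperones and 6 of 15 endoplasmic reticulum chaperones, with 0 falling in these lists. Of all genes 13.6% rose with Dnajb1 and 11.5% fell. The median r with Dnajb1 was 0.42 for the cochaperones and 0.60 for TRiC/CCT, against -0.01 over all genes. Hspa9, the mitochondrial HSP70, had a slope of 0.37 ± 0.05 (limma, adjusted p = 3.5e-06), and the TRiC/CCT subunit Cct8 one of 0.37 ± 0.06 (limma, adjusted p = 6.6e-06). In series B Hspa9 (r = -0.79), Cct8 (-0.26) and Hsf2 (-0.18) were opposite to Dnajb1, and in the other 4 series all 3 were positive. Bag3 had a slope of 0.48 ± 0.08 (limma, adjusted p = 6.0e-05), and Chordc1, an HSP90 cochaperone, one of 0.50 ± 0.10 (limma, adjusted p = 0.00037). With series as a covariate 5 of 13, 11 of 16, 8 of 8, 2 of 8 and 8 of 15 rose, where 7.68% of all genes did. Hsf2, a heat shock transcription factor, rose with Dnajb1 (slope 0.38 ± 0.07; limma, adjusted p = 0.00024), and Hsf1, the main stress factor, did not pass.

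With Hspa5 most of the endoplasmic reticulum list rose. Of its 15 genes 12 rose and 0 fell, where 20.7% of all genes rose and 11.1% fell. The median r of the list was 0.51, against 0.05 over all genes. Hsp90b1 (GRP94), the HSP90 of that compartment, had a lowest, median and highest level of 291.5, 441.7 and 606.2 CPM, and a slope of 0.55 ± 0.05 on Hspa5 (limma, adjusted p = 1.3e-11). Pdia6, a disulphide isomerase, had a slope of 0.73 ± 0.07 (limma, adjusted p = 1.3e-11). Hyou1, Sdf2l1 and Sil1, an exchange factor of Hspa5, did not pass. Among 9 regulators of the unfolded protein response 4 rose: Xbp1, its splicing-activated factor (slope 0.75 ± 0.07; limma, adjusted p = 1.2e-10), the sensor kinase Eif2ak3, Herpud1 and Ppp1r15a. Atf4 and Ddit3, which act in the branch downstream of Eif2ak3, did not pass. All 8 TRiC/CCT subunits, 9 of 13 cytosolic chaperones, 9 of 16 cochaperones and 3 of 8 mitochondrial chaperones rose with Hspa5 too. Its partners were thus not confined to its compartment, and 20.7% of all genes rose with it. The mitochondrial count is close enough to that share to say little. With the share of LOC120093067 and Zfp532 as a covariate, where 12.2% of all genes rose with Hspa5, the counts were 10 of 15, 3 of 9, 7 of 8, 7 of 13, 10 of 16 and 2 of 8.

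Genes of the same lists were called with Hspa8 and with Hsph1. With Hspa8, where 26.5% of all genes rose, all 8 TRiC/CCT subunits rose, 11 of 16 cochaperones, 7 of 13 cytosolic chaperones, 11 of 15 endoplasmic reticulum chaperones, 5 of 8 mitochondrial chaperones and 5 of 9 regulators of the unfolded protein response. Stip1, which joins HSP70 to HSP90, had a slope of 0.97 ± 0.09 on Hspa8 (limma, adjusted p = 2.7e-12), and Dnajb4 one of 1.31 ± 0.13 (limma, adjusted p = 3.0e-11). With Hsph1, where 14.4% of all genes rose, 8 of 8, 9 of 16, 7 of 13, 11 of 15, 3 of 8 and 4 of 9 of the same lists rose. Chordc1 had the steepest slope on Hsph1 among the cochaperones, 1.31 ± 0.16 (limma, adjusted p = 3.0e-07). Both cold-inducible RNA-binding genes, Cirbp (-0.59 ± 0.14; limma, adjusted p = 0.0029) and Rbm3 (-0.47 ± 0.14; limma, adjusted p = 0.013), fell with Hsph1. Of all genes 4.68% fell with Hsph1. Cirbp also fell with Dnajb1, Hspa8 and Hspa5, where 11.5%, 14.7% and 11.1% of all genes fell. Rbm3 fell with Hspa1a, Hspa1b and Hsp90aa1, where 3.17%, 4.16% and 25.9% of all genes fell. The glucocorticoid targets moved with members too. Without C22 and D2, 6 of 7 rose with Dnajb1 (14.9% of all genes), and 5 each with Hspa8 (22.8%), Hsph1 (13.9%) and Hspa5 (19.9%). With Hspa1a 3 rose (0.331%), with Hspa1b 1 (0.0908%), with Hsp90aa1 1 (7.62%) and with Hspb1 0 (0.016%). The part of these in the members' relations was not tested.

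With Hspa1b few genes rose, and cochaperones of HSP70 and HSP90 were among them. In all 49 libraries 395 genes (2.11%) rose, including 5 of 16 cochaperones (Bag3, Ahsa2, St13, Chordc1 and Cacybp), 2 of 13 cytosolic chaperones (Hspa4l and Dnaja1), Hspd1 and Cct5. Bag3 had a lowest, median and highest level of 6.62, 13.1 and 21.4 CPM and a slope of 0.17 ± 0.03 on Hspa1b (limma, adjusted p = 0.0014). Without C22 and D2 the number of genes rising with Hspa1b was 17 (0.0908%), and these held 4 of the 7 other members (Hspa1a, Dnajb1, Hsph1 and Hspb1) and 4 of 16 cochaperones. They also held 1 of 15 endoplasmic reticulum chaperones (Manf) and 1 of 7 glucocorticoid targets (Pdk4). The 4 cochaperones were Bag3 (slope 0.23 ± 0.04; limma, adjusted p = 0.0002), Ahsa2 (0.18 ± 0.03; limma, adjusted p = 0.00013), Chordc1 (0.24 ± 0.05; limma, adjusted p = 0.0065) and Ahsa1 (0.09 ± 0.02; limma, adjusted p = 0.029). Ahsa1 and Ahsa2 encode activators of the HSP90 ATPase. With Hspa1a 62 genes rose without C22 and D2 (0.331%), against 492 over 49 libraries (2.62%). The 62 held 5 of the 7 other members, with Hspa5 (limma, adjusted p = 0.029; 0.083 over 49 libraries) and without Hsp90aa1, and 5 of 16 cochaperones (Bag3, Ahsa1, Ahsa2, Fkbp4 and Chordc1), as well as Cryab, a small heat shock protein (0.33 ± 0.05; limma, adjusted p = 0.00017). Among the 62 were also Manf, Herpud1 and 3 of 7 glucocorticoid targets (Tsc22d3, Sult1a1 and Pdk4). Of the immediate early genes, Dusp1 came nearest to passing with either gene (limma, adjusted p 0.41 with Hspa1a and 0.28 with Hspa1b; 0.20 and 0.13 without C22 and D2).

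Hspb1 had the narrowest set of partners. In all 49 libraries 4 genes rose with it (0.0213%), and these were the members Hspa1a and Hspa1b, Bag3 and P4ha1. Bag3, whose protein binds small heat shock proteins, had a slope of 0.37 ± 0.07 on Hspb1 (limma, adjusted p = 0.027), with r = 0.59 and rho = 0.58 (permutation, adjusted p = 0.00025) and 0.54 to 0.92 within series. Without C22 and D2, 3 genes rose, Hspa1a, Hspa1b and Bag3 (0.46 ± 0.08; limma, adjusted p = 0.0069). Of the cochaperones other than Bag3, Ahsa2 came nearest to passing (limma, adjusted p = 0.10, and 0.063 without C22 and D2), and of the 4 other small heat shock genes tested Hspb8 did (limma, adjusted p = 0.26).

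Hsp90aa1 had partners in both directions. Of 16 cochaperones 4 rose with it (Ptges3, St13, Cacybp and Chordc1) and 7 fell (Bag1, Bag5, Stip1, Cdc37, Fkbp4, Stub1 and Hspbp1), in a background where 9.95% of genes rose and 25.9% fell. Ptges3 (p23), which stabilises the closed form of HSP90, had a slope of 0.75 ± 0.13 (limma, adjusted p = 7.0e-06). Cdc37, which brings kinases to HSP90, had a slope of -0.51 ± 0.09 (limma, adjusted p = 2.8e-05), and Hsf1 one of -0.68 ± 0.14 (limma, adjusted p = 8.5e-05). Without C22 and D2 the same 4 cochaperones rose and 2 fell, Cdc37 and Stub1, where 7.62% of genes rose and 12.9% fell. There the falling count, 2 of 16, is close enough to that share to say little about the cochaperones. Of 6 oligodendrocyte markers 4 fell with Hsp90aa1 (Mbp, Mog, Mag and Cnp; summed list 32488 to 77600 CPM, none at 0), and of 6 microglia markers 3 fell (summed list 163 to 333 CPM, none at 0). Cnp, a myelin enzyme, had a slope of -0.96 ± 0.14 (limma, adjusted p = 5.4e-07). Of 6 astrocyte markers Aqp4 and Slc1a2 rose and Aldh1l1 fell. Without the 2 libraries Mbp, Mobp, Mag and Cnp fell, 2 microglia markers fell, Slc1a2 rose, Aldh1l1 and Gfap fell (Gfap -1.18 ± 0.38; limma, adjusted p = 0.021), and Aqp4 did not pass (limma, adjusted p = 0.51). Hsp90aa1 also fell with the number of genes above 0 (r = -0.49, rho = -0.43; permutation, adjusted p = 0.0023; -0.37 without C22 and D2; -0.76 to 0.28 within series). The part of cell content and library complexity in these slopes was not tested.

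**Figure D5:**
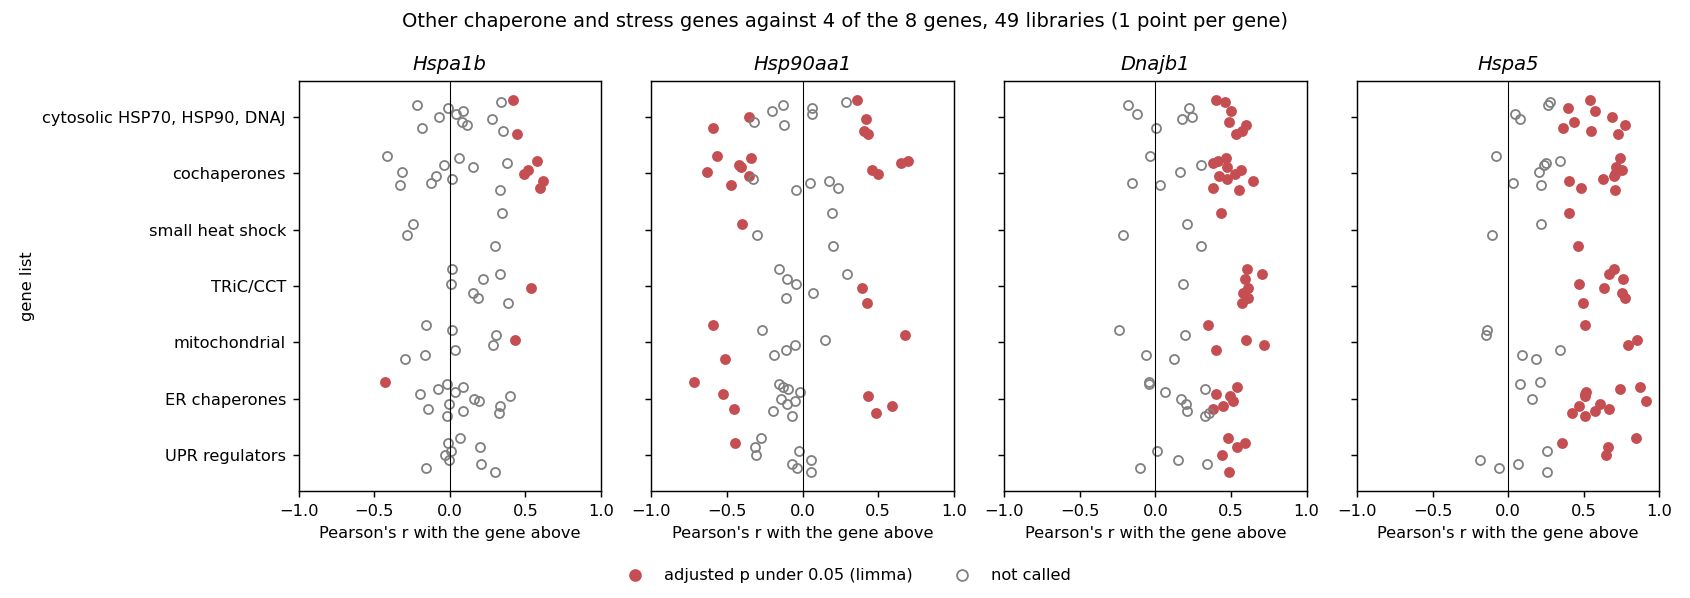
Pearson's r over 49 libraries of each gene of 7 chaperone and stress lists with Hspa1b, Hsp90aa1, Dnajb1 and Hspa5, 1 point per gene; filled points passed limma's test of the slope (adjusted p under 0.05). Filled points lie on the positive side for Dnajb1 and Hspa5, on both sides for Hsp90aa1, and are fewest for Hspa1b.

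Library measures and some cell type markers also moved with members. The share of counts in LOC120093067 and Zfp532 was lower where Hspa8 was high (r = -0.67, rho = -0.62; permutation, adjusted p = 0.0001; -0.83 to -0.19 within series), and likewise for Hspa5 (r = -0.53, rho = -0.55; permutation, adjusted p = 0.00085; -0.84 to -0.14 within series) and Hsph1 (r = -0.35, rho = -0.37; permutation, adjusted p = 0.039; -0.63 to -0.04 within series). With that share as a covariate Hspa8, Hsph1 and Hspa5 remained called with one another, and 19 of the 28 pairs were called in place of 15. Under it 7 of 7 members rose with Hspa1a (5.48% of all genes), 7 with Hspa1b (5.08%), 6 with Dnajb1 (10.9%), 3 with Hsp90aa1 (11.6%), 5 with Hspa8 (18.3%), 6 with Hsph1 (7.22%), 2 with Hspb1 (0.016%) and 6 with Hspa5 (12.2%). No member's relation to the library total passed (permutation, adjusted p 0.36 to 0.94). Of the astrocyte markers Gja1 and Slc1a3 rose with Dnajb1, Hspa8 and Hspa5 (2 of 6 each; summed list 701.0 to 2115 CPM, none at 0), and Slc1a2 rose with Hspa1a and Hspa1b, a call that was lost without C22 and D2. Neuron and RMTg markers moved in no single direction. With Hspa5 Snap25 rose and Rbfox3 fell (of 6, summed list 2043 to 3237 CPM, none at 0). Of 10 RMTg markers Gad1 rose with Hspa5 while Foxp1 and Slc32a1 fell. The dopamine neuron genes Th, Slc6a3 and Slc18a2 rose with Hspa5 (3 of 4, summed list 193 to 1951 CPM, none at 0). Without C22 and D2, 4 of 4 dopamine neuron genes rose with Hspa8, where 22.8% of all genes did. There 3 rose with Hspa5 (19.9%), 2 with Dnajb1 (14.9%), 2 with Hsph1 (13.9%) and 0 with the other members. Over the 49 libraries 13.6% of all genes rose with Dnajb1, 26.5% with Hspa8 and 20.7% with Hspa5, and 11.1% fell with Hspa5. The small counts of astrocyte, neuron and RMTg markers called with these 3 members are close enough to those shares to say little about cell content. The part of these measures in the members' relations was not tested.

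The genes most like each member, taken as the highest r with 1 sign in every series, are given as a description with no test. For Hspa1a these were Epha4 (r = 0.71), an ephrin receptor, P4ha1 (0.70), a collagen prolyl hydroxylase, Chrna7 (0.67), a nicotinic receptor subunit, Htr2c (0.66), a serotonin receptor, and St13 (0.64), an HSP70-interacting cochaperone. Epha4 (0.66) and Htr2c (0.64) led for Hspa1b too, followed by Pnrc1 (0.62), Klhl21 (0.62) and Bag3 (0.61). The first 4 of these had r of 0.54, 0.52, 0.46 and 0.43 with Hspa1b when C22 and D2 were left out, whereas Bag3 had 0.69. Within series the genes named for Hspa1a spanned 0.27 to 0.96, and those named for Hspa1b 0.12 to 0.90.

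For Dnajb1 the most alike were Tent5a (0.80), a poly(A) polymerase, Syt4 (0.78), a synaptotagmin, Lrrn3 (0.77), Gpt2 (0.76), an alanine aminotransferase, and Dusp1 (0.76). Within series these 5 spanned 0.18 to 0.87. The most opposite were Jakmip3 (-0.75), Olr35 (-0.71), Cercam (-0.65), Cd99l3 (-0.64) and Zfp827 (-0.63).

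For Hsp90aa1 the most alike were Rps24 (0.82) and Rps27a (0.80), which encode ribosomal proteins, Acyp2 (0.82), Rbis (0.81) and Zfp174 (0.80). These lay between 0.61 and 0.72 without C22 and D2, and spanned 0.03 to 0.91 within series. For Hspa8 the most alike were Zcchc18 (0.90), Pdia6 (0.90), the malate dehydrogenase Mdh1 (0.89), the isocitrate dehydrogenase subunit Idh3a (0.88) and Zwint (0.88), with 0.87 to 0.91 without C22 and D2. Within series they spanned 0.05 to 0.99. For Hsph1 the most alike were Mtmr4 (0.78), the J-domain gene Dnaja4 (0.78), Zfp2 (0.77), Chordc1 (0.76) and Hspd1 (0.75), the mitochondrial HSP60. Their r within series spanned 0.11 to 0.96.

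For Hspa5 the most alike were Hsp90b1 (0.91), Pdia6 (0.87), Hspd1 (0.85), Xbp1 (0.85) and Thumpd3 (0.82). Of these, Hsp90b1, Pdia6 and Xbp1 belong to the endoplasmic reticulum or its stress response, and within series the 5 spanned 0.32 to 0.99. The most opposite were Zfp827 (-0.84), Ppp1r14a (-0.76), Mcam (-0.73), Rab44 (-0.73) and Zeb2-as1 (-0.73), an antisense RNA whose reads may not be separable from those of its partner. For Hspb1, Bag3 (0.59) and P4ha1 (0.58) led, followed by Pde3b (0.51), Ankrd40 (0.49) and Galnt4 (0.49), with 0.03 to 0.92 within series. P4ha1 was thus among the 5 most alike of both Hspa1a and Hspb1, as Bag3 was of both Hspa1b and Hspb1.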

How the data were processed

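RNA was sequenced from polyadenylated RNA of the RMTg. The deposited values are log2 of an estimated count plus 1 per gene, as read from the values: of those above 0 and under 20 after back-transformation, 50.0% are whole within 0.01. The submitters' processing notes name kallisto 0.48; its settings, the genome build and the strand setting are not given in the sources used here. Values were back-transformed and scaled to CPM by column total. Of 92 libraries 49 were used (32 and 11 of 2 other kinds were not). Genes with log2(CPM + 1) of at least 1 in 20% of libraries were kept. limma 3.58.1 in R 4.3.3 (trend) tested series and slopes, with Benjamini-Hochberg adjustment at 0.05, and was tested on simulated data. Correlations used 100000 permutations in Python 3.11.15 with scipy 1.17.1. Each member was described, members of fixed lists were named, and the 5 most alike genes per member were those of highest r whose sign was the same in all 5 series, passing over unnamed loci. The members and lists were chosen with earlier results of these data known. Alternatives covered scaling, the pseudocount, the filter, left-out series or libraries and covariates. Dixon's test for a sample apart was run on the 8 members in series B, E and F (24 sets), and 0 passed; series C and D, which hold C22 and D2, have over 10 libraries and were not tested.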

Additional observations from a re-analysis of the deposited data

How the results depend on the processing

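Of 497 recomputed member correlations, 458 kept their direction and side of the threshold, 19 gained a call, 7 lost one and 13 changed sign; of 127 tests between series, 120 stayed, 6 gained a call and 1 lost it. The cause was not tested. Calls between series (320) numbered 579, 116 and 107 without series C, E and F, 105 with Xist and Ddx3y levels as covariates, 14000 in all 92 libraries and 735 without C22 and D2. Members called (1) numbered 0 without series F, where Dnajb1 had an adjusted p of 0.076 (limma), and 7 in all 92 libraries. Genes rising with Dnajb1 (2555) numbered 1673 without series E, 1440 with series as covariate and 17611 in all 92 libraries; genes falling with it (2151) numbered 1055, 1022 and 1279 without series C, E and F, 706 with Xist and Ddx3y, 390 with series and 407 in all 92. Genes rising with Hspa5 (3873) numbered 1643 without series D, 1668 without the 2 farthest libraries, 2283 with the share of LOC120093067 and Zfp532 and 17798 in all 92; genes falling with it (2090) numbered 778, 1058, 1187 and 347 in the same 4 settings. Member pairs called (15) ranged from 10 (Hspa1a and Hspa1b summed as 1 gene) to 28 (all 92). Every correlation that changed sign was uncalled over the 49 libraries. For Hsp90aa1 and Hspa8 r was 0.205 without the 2 farthest libraries, which are C22 and D2, 0.806 in all 92 and 0.0227 with the share as covariate. For Hsp90aa1 and Hsph1 it was -9.36e-06 without series C. For Hsp90aa1 and Hspa5 it was -0.0483, -0.00857 and -0.00628 without series C, E and F and -0.0226 without the 1 library of corrected identifier among the 49. For Hspa8 and Hspb1 it was -0.0183 and -0.111 without series D and E, -0.0211 with Xist and Ddx3y and -0.0482 without the 2 farthest. The alternatives without C22 and D2, with the share and with summed genes were chosen after seeing the data. No paired analysis was possible because all samples belong to 1 group and share no replicate numbers.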

Other observations

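In the 32 libraries of the kind dominated by LOC120093067 and Zfp532, without the dominant features in the totals, the median level minus that of the 49 libraries was 1.13 on the log2 scale for Hsp90aa1, -0.04 for Hsph1, -1.28 for Hspb1, -1.39 for Hspa1b, -1.43 for Dnajb1, -1.645 for Hspa1a, -1.65 for Hspa5 and -1.95 for Hspa8, against -0.32 for the median gene. By the same measure Gapdh had -2.24, Actb -2.51 and Hsp90ab1 0.75, so falls of this size were not particular to the members. In the 11 libraries dominated by Nif3l1, Hspa1b was listed at 0 in 11, Hspa1a in 10, Hspb1 in 9 and Dnajb1 in 3.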
